A study of Mus musculus with 3 samples.

Results

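The tumour necrosis factor (TNF) superfamily pairs trimeric ligands, most of them made as membrane proteins and in part shed by proteases, with receptors that recruit TRAF adaptors or, through a death domain, death-inducing complexes. TNF itself is an early cytokine of neutrophils and macrophages after contact with bacterial products, and its receptors drive NF-kappaB, which in turn induces TNF and feedback inhibitors. Other members co-stimulate lymphocytes, keep B cells alive or trigger apoptosis. The family was read in 3 gene tables by name: symbols that begin with Tnfsf or Tnfrsf and a number, together with Tnf, Lta, Ltb, Fas, Fasl, Cd40, Cd40lg, Cd27, Cd70, Ngfr and Eda. This rule found 42 of the 23234 genes listed, 18 ligands and 24 receptors, and no expression value entered it.

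All cells came from wild-type C57BL/6J mice, 6-15 weeks old, that had received lipopolysaccharide (LPS), a bacterial cell wall component, by drops into both nostrils (10 µg in 10 µL). The nasal double-positive library (DP) was made from CD45+Ly6G+SiglecF+ cells of the nose taken 2 days after LPS. The nasal neutrophil library was made from CD45+Ly6G+SiglecF- cells of the nose at 1 day, and the blood neutrophil library from cells of that same gate in peripheral blood, also at 1 day. There was 1 library in each of the 3 groups and the labels do not give the number of mice behind each, so no value below carries a replicate error, no test was possible, and day and gate cannot be told apart from the group where DP is compared. The study set these SiglecF-positive cells against neutrophils that lack SiglecF.

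Values are FPKM, fragments scaled to transcript length and sequencing depth, so levels can be compared between genes. They are estimates, and an exact 0 can be a failed estimate. About 55 fragments in DP, 13 in the nasal and 54 in the blood neutrophils stood behind 1 FPKM in a transcript of 1 kb, as judged from the steps between low values. A count of 3 fragments on a 2 kb transcript would read 0.0274 FPKM in DP, 0.117 in the nasal and 0.0276 in the blood neutrophils, which limits counting error only. Of all genes, 11294 reached 1 FPKM in DP, 10460 in the nasal and 7706 in the blood neutrophils. Markers of the labelled type were abundant: the 9 neutrophil markers with a row summed to 12450 FPKM in DP, 54620 in the nasal and 78140 in the blood neutrophils, although S100a8, a major neutrophil protein gene, was listed at 0 in blood, where 91 genes were at 0 with 10 FPKM or more in both other libraries. Ly6g was not analysed here. Of 8 olfactory neuron markers, 8 reached 1 FPKM in DP and 8 in the nasal neutrophils against 2 in blood, and their sums were 1919, 927.9 and 4.89 FPKM in the DP, nasal and blood libraries. In such bulk samples fewer cells of a type and less RNA per cell cannot be told apart.

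Genes averaging 1 FPKM or more across the 3 libraries were compared, which held for 23 of the 42 members (8 ligands and 15 receptors) and 10719 of all genes. Ratios are given as log2 of (FPKM + 1), where those of low genes come out too small, and 4-fold (a log2 ratio of 2) was the threshold for counting a gene. The summed level of all 42 members was 854.1 FPKM in DP, 1528.8 in the nasal and 881.6 in the blood neutrophils. Of the 23 compared members, 3 were highest in DP, 14 in the nasal and 6 in the blood neutrophils. Those highest in DP were ligands (Ltb, Tnfsf9 and Tnfsf10), although Tnfsf10 was not highest with upper-quartile scaling, ratios centred on the median of all genes or a correction for transcript length, nor Ltb with that last correction. Of the 14 highest in nasal neutrophils, 11 were receptors, beside 15 receptors among the 23 compared. The highest library was not counted over all genes, so no background share stands beside these counts.

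**Figure D1:**
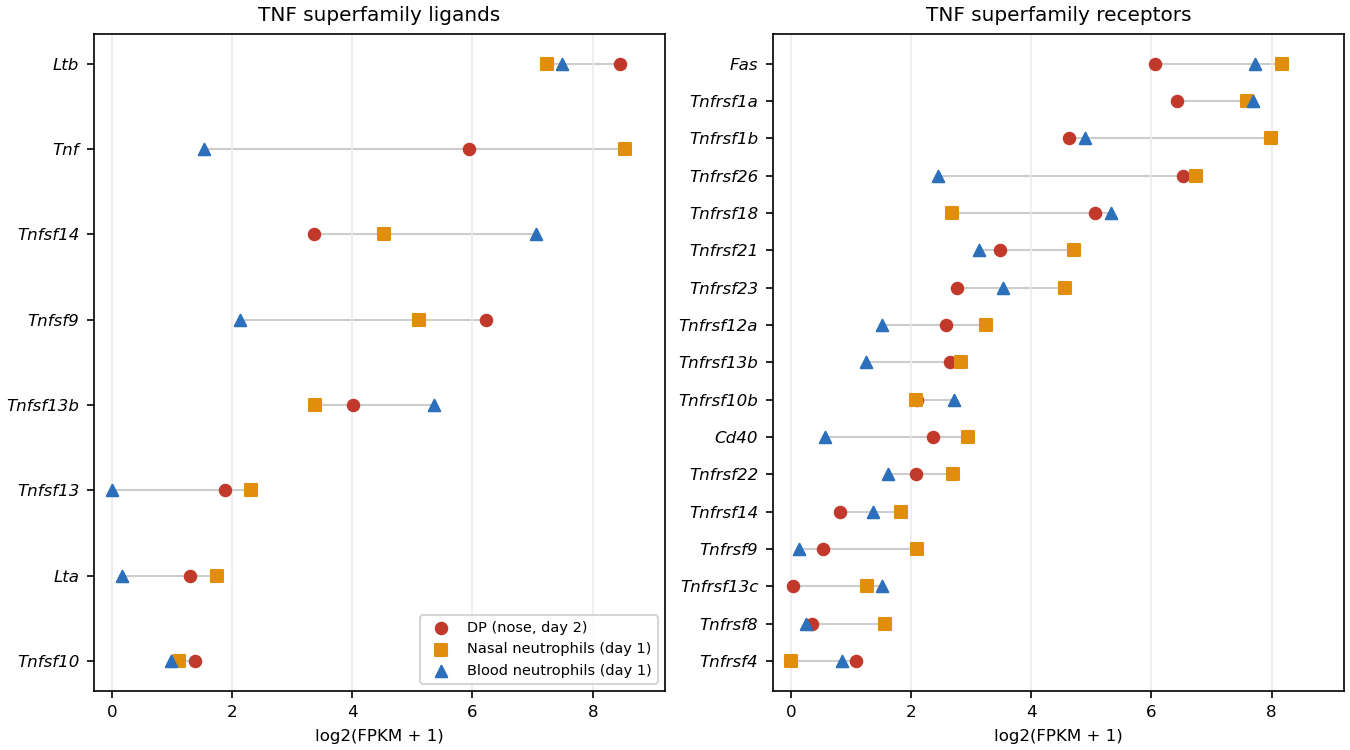
Levels of the 25 members with at least 1 FPKM in a library, on a log2(FPKM + 1) axis, ligands on the left and receptors on the right, each point being 1 library. Tnf and Tnfrsf1b lie far to the right in nasal neutrophils, and Tnfsf14 in blood neutrophils. Ltb and Tnfsf9 are highest in DP, with log2 ratios over nasal neutrophils of 1.21 and 1.11, under 4-fold.

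Tnf, Lta and Ltb are neighbours in the major histocompatibility complex with 0 protein-coding genes between them. They encode TNF, lymphotoxin alpha, which also binds the TNF receptors, and lymphotoxin beta, which joins lymphotoxin alpha in a membrane complex that binds the lymphotoxin beta receptor. Since these 3 genes of 1 locus had different patterns over the libraries, their starts are shown for comparison. The RefSeq promoter windows run from 250 bases before to 50 bases after the transcript start (build GRCm38.p6; the expression tables were made on mm9, and no coordinate was carried over), at chr17:35201958-35202257 on the minus strand for Tnf, chr17:35205302-35205601 on the minus strand for Lta and chr17:35194257-35194556 on the plus strand for Ltb. Capitals mark matches to TATAAA or to the NF-kappaB consensus, each searched on both strands.

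Tnf: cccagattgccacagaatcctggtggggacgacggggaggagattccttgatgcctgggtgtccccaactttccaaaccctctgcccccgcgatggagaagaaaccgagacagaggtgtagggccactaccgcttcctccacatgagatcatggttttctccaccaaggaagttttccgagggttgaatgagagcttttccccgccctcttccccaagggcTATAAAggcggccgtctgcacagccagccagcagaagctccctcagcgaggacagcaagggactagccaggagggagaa

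Lta: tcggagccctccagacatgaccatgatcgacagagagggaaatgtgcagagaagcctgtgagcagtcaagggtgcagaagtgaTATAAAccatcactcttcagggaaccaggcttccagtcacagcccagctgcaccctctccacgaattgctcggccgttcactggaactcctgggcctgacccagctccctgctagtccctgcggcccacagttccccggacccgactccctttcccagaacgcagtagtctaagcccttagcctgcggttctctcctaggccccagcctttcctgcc

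Ltb: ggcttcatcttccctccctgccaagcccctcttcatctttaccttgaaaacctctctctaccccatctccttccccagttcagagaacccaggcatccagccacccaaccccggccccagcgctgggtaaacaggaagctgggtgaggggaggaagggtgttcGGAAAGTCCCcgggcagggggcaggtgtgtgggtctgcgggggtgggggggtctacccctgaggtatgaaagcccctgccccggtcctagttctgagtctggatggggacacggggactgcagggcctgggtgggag

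The Tnf window held TATAAA at bases -29 to -24 from the start and the Lta window at -167 to -162, while the Ltb window held a match to the NF-kappaB consensus at -87 to -78 and no TATAAA. Of all 32851 promoter windows in the table, 13.6% held TATAAA and 8.46% the NF-kappaB consensus. Among the 36 windows of the 32 members with an entry, 6 held TATAAA and 4 the NF-kappaB consensus, those of Ltb, Tnfrsf8, Tnfrsf9 and Tnfrsf25. The AP-1 motif TGANTCA was in 7 member windows, against 7.81% of all windows, and in none of the 3 printed. Such matches describe these letters and are neither binding sites nor causes. Bases more than 250 before the start were not searched, so a window without a match says nothing of sites further upstream.

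Tnf had 60.3 FPKM in DP, 372.7 in the nasal and 1.89 in the blood neutrophils. It ranked 225 among all genes of the nasal neutrophil library, 1597 in DP and 6543 in blood neutrophils. The log2 ratio was -2.61 for DP over nasal neutrophils and 4.41 for DP over blood neutrophils, so DP lay between both neutrophil libraries. For nasal over blood neutrophils it was 7.01, a 197-fold ratio of the deposited values and the greatest log2 ratio of the 23 members in that comparison.

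Ltb was the most abundant member on average, with 349.3 FPKM in DP, 149.9 in the nasal and 178.7 in the blood neutrophils. It ranked 308, 503 and 464 in DP, nasal and blood neutrophils. Its ratios stayed under 4-fold: 1.21 for DP over nasal neutrophils, -0.25 for nasal over blood and 0.96 for DP over blood. Corrected for transcript length, the value for DP over nasal neutrophils was 0.42 and that for DP over blood neutrophils changed direction to -0.40, so the place of DP against blood rests on the scaling. Lymphotoxin beta is made by lymphocytes, and in the same libraries the 10 T and NK cell markers summed to 9.38 FPKM in DP, 6.51 in the nasal and 14.1 in the blood neutrophils and the 8 B and plasma cell markers to 7.20, 48.9 and 69.2; their part in the Ltb values was not tested.

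Lta was low, at 1.45 FPKM in DP, 2.35 in the nasal and 0.13 in the blood neutrophils. The blood value stood for about 10 fragments. Within a library the Tnf to Ltb ratio was 0.173 in DP, 2.49 in the nasal and 0.0106 in the blood neutrophils. Tnf thus made up 11.7% of the summed ligand FPKM in DP, 62.5% in the nasal and 0.529% in the blood neutrophils, and Ltb 67.9%, 25.1% and 50%. The leading ligand gene was therefore Ltb in DP and in blood neutrophils, and Tnf in nasal neutrophils.

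**Figure D2:**
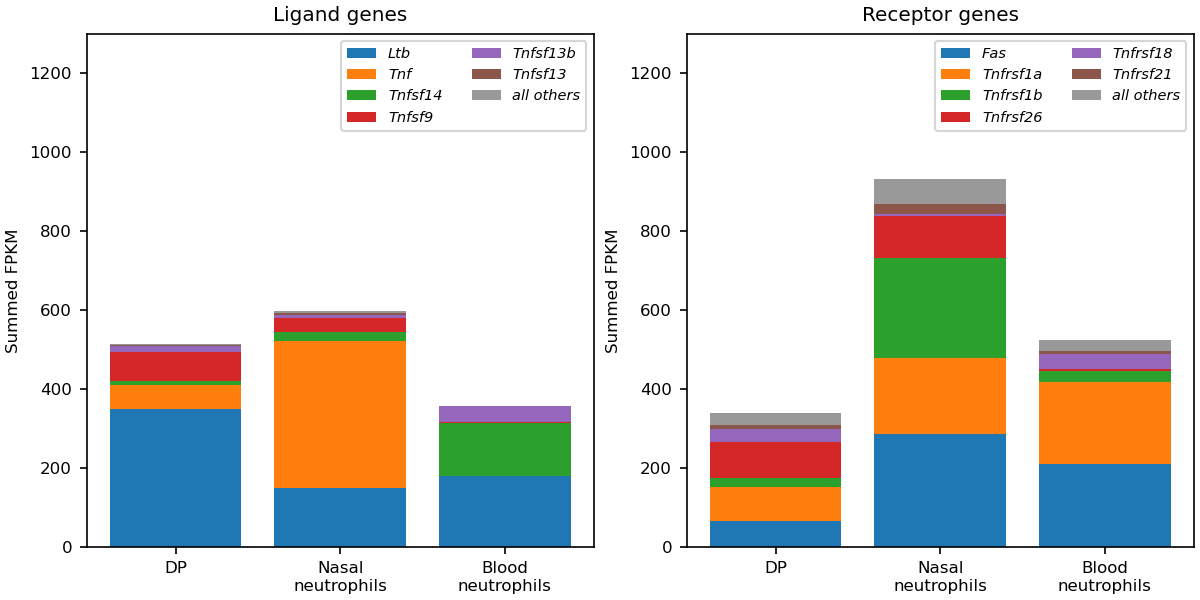
Summed FPKM of the 18 ligand genes (left) and the 24 receptor genes (right) in each library, stacked by gene, with the 6 most abundant genes in colour and the others in grey. The ligand sums were 514.3, 596.7 and 357.5 FPKM and the receptor sums 339.8, 932.1 and 524.1 FPKM in the DP, nasal and blood libraries.

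Of the 8 co-stimulatory ligands, Tnfsf9 and Tnfsf14 reached 1 FPKM. Tnfsf9, whose product is the 4-1BB ligand of activated antigen-presenting cells, had 73.7 FPKM in DP, 33.7 in the nasal and 3.38 in the blood neutrophils. Its log2 ratio was 4.09 for DP over blood neutrophils, 2.98 for nasal over blood neutrophils and 1.11 for DP over nasal neutrophils, the last being 0.10 when corrected for transcript length. Tnfsf14, which encodes LIGHT, a ligand of HVEM and of the lymphotoxin beta receptor, ran the other way, with 9.30 FPKM in DP, 22.2 in the nasal and 132.3 in the blood neutrophils. Both nasal libraries were more than 4-fold below blood, with log2 ratios of -3.69 for DP over blood and -2.52 for nasal over blood neutrophils. An opposite-strand transcript overlaps Tnfsf9 in GENCODE M21. The 9 macrophage markers summed to 458.2 FPKM in DP, 539.2 in the nasal and 400.0 in the blood neutrophils. Of these, 1 was highest in DP, 7 in nasal and 1 in blood neutrophils. C1qa, C1qb and C1qc were at 0 in blood and lower in DP than in nasal neutrophils, C1qb having 32.3 and 80.9 FPKM. Emr1 had 47.2 FPKM in DP, 59.9 in the nasal and 78.8 in the blood neutrophils, and Cd68 296.3, 181.1 and 235.3. The part of macrophage RNA in the Tnfsf9 values was not tested. The other 6 co-stimulatory ligands (Tnfsf4, Tnfsf8, Tnfsf15, Tnfsf18, Cd40lg and Cd70) did not exceed 0.136 FPKM in any library.

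Tnfsf13b and Tnfsf13 encode BAFF and APRIL, survival factors of B cells and plasma cells that myeloid cells release. Tnfsf13b had 15.2 FPKM in DP, 9.46 in the nasal and 39.9 in the blood neutrophils, and its log2 ratio for nasal over blood neutrophils of -1.97 fell just short of 4-fold. Tnfsf13 had 2.67 FPKM in DP and 4.0 in the nasal neutrophils, while blood neutrophils had it listed at 0. The order of these ligands thus differed, with Tnfsf13b highest and Tnfsf13 lowest in blood. Tnfsf12, which encodes TWEAK and neighbours Tnfsf13, was at 0.389 FPKM in DP, 0.810 in the nasal and 0 in the blood neutrophils. In the GENCODE M21 annotation a same-strand transcript, Tnfsfm13, and an antisense gene overlap Tnfsf13, so its reads may be divided.

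Tnfsf10 and Fasl, the members grouped here as death ligands, were scarce. Tnf, which also has a death domain receptor, is given above. Tnfsf10, which encodes TRAIL, had 1.62 FPKM in DP, 1.16 in the nasal and 0.97 in the blood neutrophils. Fasl, the Fas ligand of cytotoxic lymphocytes, had 0.204 FPKM in DP, 0.0422 in the nasal and 0.0404 in the blood neutrophils, about 22, 1 and 4 fragments. Tnfsf11, which encodes the bone-resorption factor RANKL, and Eda, the ligand of ectodermal development, did not exceed 0.00827 and 0.0178 FPKM in any library. These values, both in DP, stood for about 1 and 5 fragments, so the libraries are not ordered by them.

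Death domain receptors were among the most abundant members. Fas, the receptor that starts apoptosis on contact with its ligand, had 65.7 FPKM in DP, 286.0 in the nasal and 210.5 in the blood neutrophils. DP was lowest, with log2 ratios of -2.11 over nasal neutrophils, past 4-fold, and -1.67 over blood neutrophils, which went to -2.62 with ratios centred on the median of all genes. Tnfrsf1a, which encodes TNF receptor 1, the widely expressed death domain receptor of TNF, had 85 FPKM in DP, 192.7 in the nasal and 206.4 in the blood neutrophils. The neutrophil libraries lay close together, at a log2 ratio of -0.10 for nasal over blood, and DP stood below both, at -1.17 over nasal and -1.27 over blood neutrophils.

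Tnfrsf1b encodes TNF receptor 2, which lacks a death domain and binds membrane TNF best. It had 23.6 FPKM in DP, 253.1 in the nasal and 28.8 in the blood neutrophils. Nasal neutrophils stood apart, at a log2 ratio of 3.09 over blood, and DP was below nasal neutrophils by the largest log2 ratio of the 23 members in that comparison, -3.37. The value of DP over blood neutrophils was -0.28. Within a library the ratio of Tnfrsf1b to Tnfrsf1a was 0.278 in DP, 1.31 in the nasal and 0.140 in the blood neutrophils, so the type 2 receptor gene exceeded the type 1 gene in nasal neutrophils and not in DP or blood neutrophils.

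The remaining death domain receptors were lower. Tnfrsf21, which encodes death receptor 6, had 10.1 FPKM in DP, 25.1 in the nasal and 7.72 in the blood neutrophils, with no ratio past 4-fold. Tnfrsf10b, the death receptor of TRAIL in mice, was nearly even, at 3.31 FPKM in DP, 3.25 in the nasal and 5.57 in the blood neutrophils. Ngfr, the p75 neurotrophin receptor of olfactory ensheathing glia among other cells, had 0.519 FPKM in DP, 0.524 in the nasal and 0.149 in the blood neutrophils. The 9 markers of ensheathing and Schwann cells summed to 81.2 FPKM in DP, 27.4 in the nasal and 0.731 in the blood neutrophils, and their part in the Ngfr values was not tested. Tnfrsf25, which encodes death receptor 3, was at 0.180 FPKM in DP and listed at 0 in both neutrophil libraries.

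Tnfrsf26, Tnfrsf22 and Tnfrsf23 adjoin each other in the mouse genome with 0 protein-coding genes between them, and the proteins of Tnfrsf22 and Tnfrsf23 are decoy receptors that bind TRAIL in mice without passing a death signal. Tnfrsf26 was abundant in the nose, with 91.2 FPKM in DP, 106.5 in the nasal and 4.46 in the blood neutrophils. Its log2 ratios were 4.08 for DP over blood and 4.30 for nasal over blood neutrophils, next to -0.22 for DP over nasal neutrophils. Tnfrsf23 had 5.80 FPKM in DP, 22.5 in the nasal and 10.5 in the blood neutrophils, and Tnfrsf22 had 3.24, 5.49 and 2.08. Both neighbours were also highest in nasal neutrophils, but with smaller nasal over blood log2 ratios, 1.03 for Tnfrsf23 and 1.08 for Tnfrsf22. Tnfrsf22 was lowest in blood neutrophils like Tnfrsf26, and Tnfrsf23 was lowest in DP. Tnfrsf22 and Tnfrsf23 are close copies, so reads may be divided between them, and an antisense gene overlaps Tnfrsf23 and Tnfrsf26 in GENCODE M21, while the counting of strand is not given in the sources used here. Tnfrsf11b, the secreted decoy of RANKL, had 0.373 FPKM in DP, 0.0544 in the nasal and 0 in the blood neutrophils.

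Tnfrsf18, which encodes GITR, a receptor of regulatory and activated T cells, was the 1 member at least 4-fold higher in DP than in nasal neutrophils. It had 32.3 FPKM in DP, 5.39 in the nasal and 39.0 in the blood neutrophils. The nasal neutrophil library was the low one, with log2 ratios of 2.38 for DP over nasal and -2.65 for nasal over blood neutrophils. The DP over nasal value went to 1.81 with ratios centred on the median, 1.78 with upper-quartile scaling, 1.84 with a pseudocount of 5 and 1.37 with a correction for transcript length, each under 4-fold. Of the 10 T and NK cell markers, 8 were likewise lowest in nasal neutrophils, all at lower levels than Tnfrsf18, Cd3g having 1.72 FPKM in DP, 0.173 in the nasal and 3.64 in the blood neutrophils and Cd3e 0.464, 0.0576 and 0.428. Cd3d was level between the nasal libraries, at 1.95 FPKM in DP, 1.89 in the nasal and 4.44 in the blood neutrophils, and the other 2, Cd4 (0, 0.614 and 0.159 FPKM) and Cd247 (0.533, 0.958 and 0.643 FPKM), were highest in nasal neutrophils. Their part in the Tnfrsf18 values was not tested. Its neighbour Tnfrsf4, which encodes the T cell receptor OX40, had 1.13 FPKM in DP, 0 in the nasal and 0.805 in the blood neutrophils. Cd27, a receptor of T and B cells, had 0.441, 0.067 and 0.547. All 3 were thus listed lowest in nasal neutrophils, the library with the fewest fragments behind 1 FPKM. The nasal Cd27 value stood for about 1 fragment, and the 0 of Tnfrsf4 can be a failed estimate. On the opposite strand a transcript overlaps Tnfrsf18 in GENCODE M21.

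Several receptors of antigen-presenting and activated cells were highest in nasal neutrophils at low levels. Cd40, through which T cells activate antigen-presenting cells, had 4.14 FPKM in DP, 6.76 in the nasal and 0.484 in the blood neutrophils, a log2 ratio of 2.39 for nasal over blood that went to 1.98 with centred ratios. Tnfrsf9, the receptor of the Tnfsf9 product, had 0.443 FPKM in DP, 3.28 in the nasal and 0.0948 in the blood neutrophils. The deposited values of Tnfrsf9 differed 34.6-fold between nasal and blood neutrophils, yet the log2 ratio with the pseudocount was 1.97, under the threshold. Tnfrsf8, which encodes CD30, had 0.282 FPKM in DP, 1.97 in the nasal and 0.186 in the blood neutrophils. Tnfrsf12a, the TWEAK receptor Fn14 of injured tissue, had 5.01, 8.48 and 1.86 FPKM in the DP, nasal and blood libraries. Tnfrsf14, which encodes the LIGHT receptor HVEM, had 0.756, 2.57 and 1.58 FPKM in the DP, nasal and blood libraries.

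The receptors of BAFF and APRIL divided. Tnfrsf13c, the BAFF receptor of B cells, had 0.0296 FPKM in DP, 1.42 in the nasal and 1.87 in the blood neutrophils, and the DP value stood for about 3 fragments. All 8 B and plasma cell markers were likewise lowest in DP, among them Cd79a, a part of the B cell receptor, with 2.19 FPKM in DP, 23.2 in the nasal and 18.9 in the blood neutrophils, and Ms4a1 with 0.526, 4.45 and 12.5; their part in the Tnfrsf13c values was not tested. Tnfrsf13b, which encodes TACI, was instead low in blood, with 5.29 FPKM in DP, 6.10 in the nasal and 1.37 in the blood neutrophils. Tnfrsf17, the plasma cell receptor of the pair, was at 0 in all 3 libraries. In all, 17 members stayed under 1 FPKM in every library, 10 ligands and 7 receptors, with Tnfrsf19 the highest among them at 0.886 FPKM in DP, 0.748 in the nasal and 0 in the blood neutrophils, and Tnfrsf11a, the receptor of RANKL, at 0.127, 0.187 and 0.0967 FPKM. Of these 17, 3 were listed at 0 in DP, 6 in the nasal and 10 in the blood neutrophils.

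Set over the family, DP against nasal neutrophils gave 1 member at least 4-fold higher (Tnfrsf18), where 8.42% of the 10719 genes were, and 3 at least 4-fold lower (Tnfrsf1b, Tnf and Fas), where 3.62% of all genes were. The median log2 ratio of the 23 members was -0.61, against 0.57 over all genes tested. Ratios were above 0 for 4 of 8 ligands and 2 of 15 receptors, against 69.3% of all genes tested. The medians were -0.08 for ligands and -1.02 for receptors. Because the median of all genes was not 0, ratios were also centred on it: the family median was then -1.19, 0 members were higher, where 3.36% of all genes were, and 5 were lower, where 7.21% were, Tnfrsf23 (-2.36) and Tnfrsf9 (-2.14) joining the 3.

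For nasal against blood neutrophils, taken on the same day with the same gate, 6 members were at least 4-fold higher (Tnf, Tnfrsf26, Tnfrsf1b, Tnfsf9, Cd40 and Tnfsf13), where 13.1% of all genes were, and 2 were at least 4-fold lower (Tnfrsf18 and Tnfsf14), where 3.23% were. Without Tnfsf13, which was listed at 0 in blood, 5 members were higher. The median log2 ratio was 1.08 over the 23 members and 0.41 over all genes tested. With centred ratios 4 members were higher, where 9.03% of all genes were, and 3 lower, where 5.68% were, Cd40 (1.98) and Tnfsf13 (1.91) dropping out and Tnfsf13b (-2.38) joining the lower ones. Epithelial and olfactory neuron markers moved with this comparison, 6 of 7 and 8 of 8 of those compared being at least 4-fold higher in nasal neutrophils, with summed epithelial levels of 275.6 FPKM against 1.74 in blood. Whether such RNA gave a part of the family's values was not tested.

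DP against blood neutrophils differed in tissue, day and gate together. At least 4-fold higher in DP were 3 members (Tnf, Tnfsf9 and Tnfrsf26), where 24% of all genes were, and 1 was at least 4-fold lower (Tnfsf14), where 3.57% were. The median log2 ratio was 0.40 over the 23 members and 0.95 over all genes tested. With centred ratios those 3 were again past 4-fold (3.45, 3.14 and 3.13), where 10.4% of all genes were. Then 5 members were lower, where 9.06% of all genes were, namely Tnfsf14 (-4.65), Fas (-2.62), Tnfrsf13c (-2.43), Tnfsf13b (-2.29) and Tnfrsf1a (-2.22). The 3 comparisons share libraries, so their values are set side by side and are not independent.

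**Figure D3:**
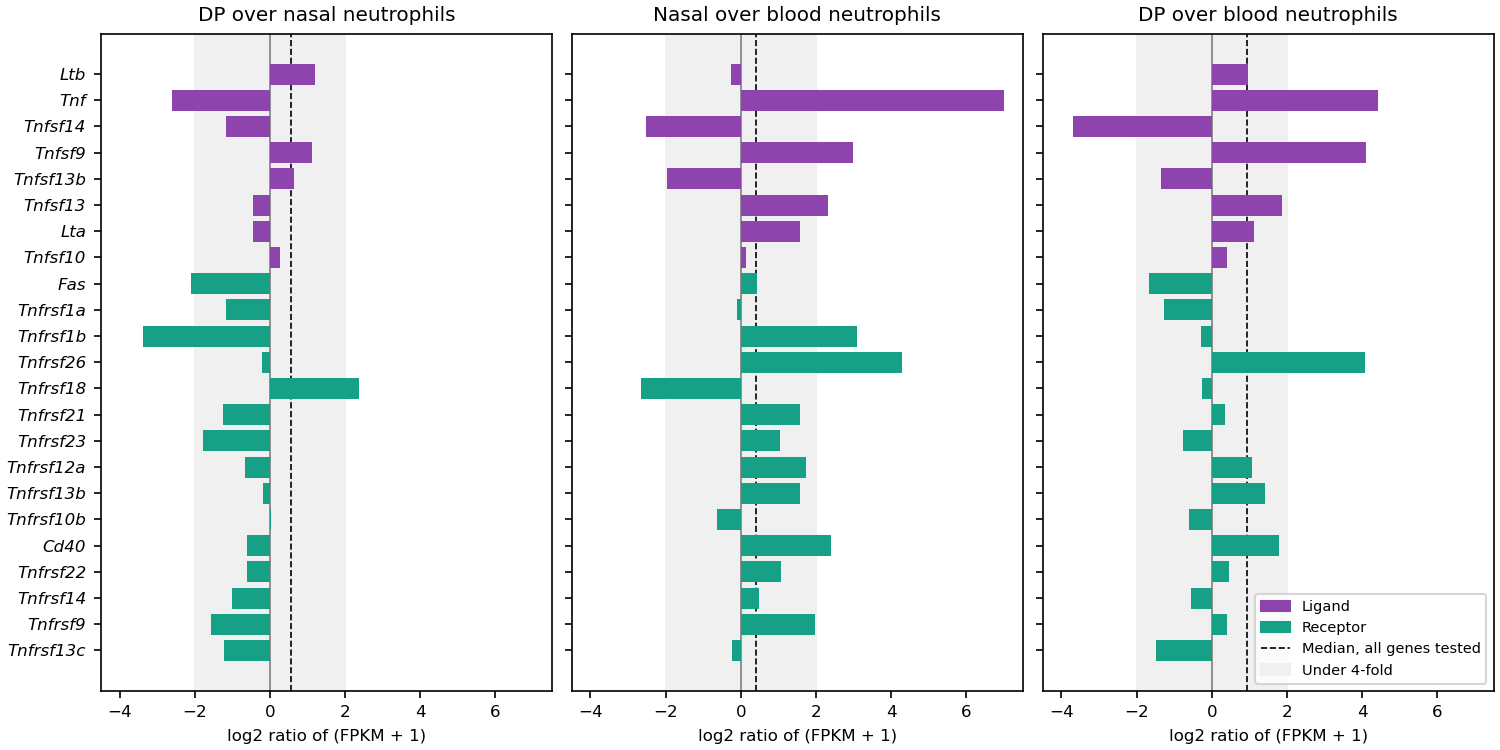
Log2 ratio of (FPKM + 1) for the 23 compared members in each comparison, with the range under 4-fold shaded and the median of all 10719 genes dashed. Most receptors lie left of the dashed line in DP over nasal neutrophils, and Tnf, Tnfrsf26 and Tnfsf9 extend right of the shaded range in both comparisons with blood.

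Expression of a ligand beside its receptor was read within each library. Tnf and Tnfrsf1a both exceeded 10 FPKM in DP and in nasal neutrophils, with Tnf at 60.3 and 372.7 FPKM, but in blood neutrophils Tnf was at 1.89 FPKM beside 206.4 FPKM of Tnfrsf1a. Fas exceeded Fasl 322-fold in DP, 6780-fold in the nasal and 5210-fold in the blood neutrophils, with about 22, 1 and 4 fragments of Fasl. Tnfsf9 stood at 73.7 and 33.7 FPKM in DP and nasal neutrophils, with its receptor Tnfrsf9 at 0.443 FPKM in DP and 3.28 in the nasal neutrophils, while Tnfrsf18 stood at 32.3 FPKM in DP with its ligand Tnfsf18 at 0.0632. Beside Ltb, the lymphotoxin beta receptor gene Ltbr, which the name rule leaves out, stood at 6.00 FPKM in DP, 13.3 in the nasal and 14.1 in the blood neutrophils. Lta, whose product is the other part of the ligand complex, was at 1.45, 2.35 and 0.13 FPKM in the same order.

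Genes that process the ligands or carry the receptors' signals were read from 3 lists. Of 36 compared signalling genes, 0 lay 4-fold above and 3 lay 4-fold below nasal neutrophils in DP, where 8.42% and 3.62% of all genes did, with a median log2 ratio of -0.12 against 0.57 over all genes. For nasal over blood neutrophils 4 were higher and 0 lower, beside 13.1% and 3.23% of all genes, with a median of 0.64 against 0.41. For DP over blood neutrophils 3 were higher and 0 lower, beside 24% and 3.57% of all genes, with a median of 0.77 against 0.95. Tnfaip3, which encodes the feedback inhibitor A20, had 93.3 FPKM in DP, 632.8 in the nasal and 2.32 in the blood neutrophils. Traf1, an NF-kappaB-induced adaptor of TNF receptor 2, had 6.56 FPKM in DP, 47.0 in the nasal and 0.626 in the blood neutrophils. Ikbke, an NF-kappaB and interferon pathway kinase, had 53.4, 125.8 and 0.358 FPKM in the DP, nasal and blood libraries. Tnip1, whose product works with A20, had 77.5, 211.3 and 19.3 FPKM in the same order of libraries. Like Tnf, these 4 genes were highest in nasal neutrophils and lowest in blood neutrophils. They were named for the largest absolute nasal over blood log2 ratios, so their strong change in that comparison follows from the choice. Of the 36 signalling genes, 69.4% had a nasal over blood ratio above 0, against 62.1% of all genes tested. Several signalling genes were instead lowest in nasal neutrophils, Birc2 among them, with 18.6 FPKM in DP, 10.4 in the nasal and 20.9 in the blood neutrophils.

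Among 6 compared genes of ligand processing, 2 were at least 4-fold lower in DP than in nasal neutrophils, where 3.62% of all genes were. Rhbdf2, which encodes iRhom2, the escort that the TNF-shedding protease needs in myeloid cells, had 2.29 FPKM in DP, 24.4 in the nasal and 6.34 in the blood neutrophils (log2 ratio -2.95 for DP over nasal). Furin, which encodes a convertase that cleaves BAFF and APRIL among other proteins, had 7.11, 57.6 and 8.17 FPKM in the DP, nasal and blood libraries. Adam17, which encodes the TNF-shedding protease itself, was even, at 25.2 FPKM in DP, 25.1 in the nasal and 21.3 in the blood neutrophils. Timp3, an inhibitor of that protease made by stromal cells, had 6.28, 8.86 and 0.112 FPKM in the same order, and the 10 stromal and endothelial markers summed to 28.4, 23.8 and 5.92 FPKM. Of these markers 2 were highest in DP and 8 in nasal neutrophils, and 9 were lowest in blood neutrophils; the part of stromal RNA in the Timp3 values was not tested. The 3 further receptors of the family that were compared (Ltbr, Relt and Rell1) showed no ratio past 4-fold.

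**Figure D4:**
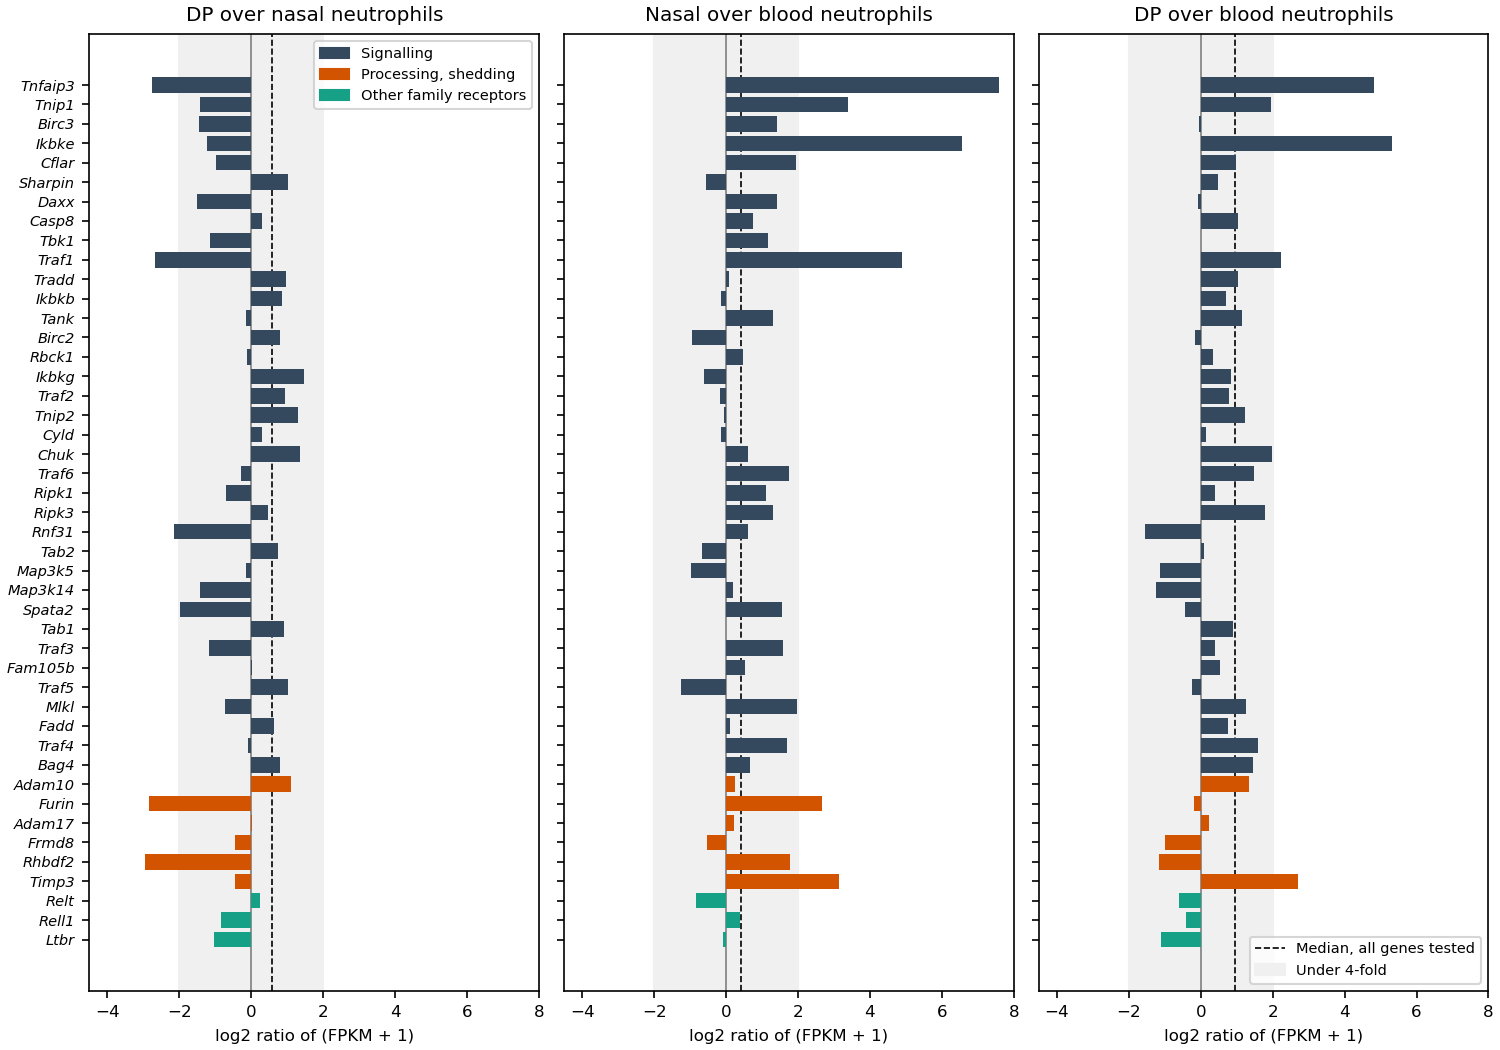
Log2 ratio of (FPKM + 1) for the 45 compared genes of receptor signalling, ligand processing and further family receptors in each comparison, with the range under 4-fold shaded and the median of all genes tested dashed. Tnfaip3, Ikbke and Traf1 extend past 4-fold in both comparisons with blood, and Rhbdf2, Furin, Tnfaip3, Traf1 and Rnf31 lie past 4-fold on the lower side in DP over nasal neutrophils.

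The other cell types that a sort could hold were read from 12 marker lists. Eosinophils carry SiglecF too: their 10 markers summed to 179.0 FPKM in DP, 26.8 in the nasal and 25.6 in the blood neutrophils, and to 11.2, 16.9 and 6.86 without Siglec5, the older symbol of the gene for SiglecF, on which DP cells were sorted. Of the other markers, the granule genes Epx and Prg3 were at 0 in all 3 libraries and Prg2 at 0.185 FPKM in DP, 0 in the nasal and 0.161 in the blood neutrophils. Of the 8 eosinophil markers above 0, Siglec5 among them, 3 were highest in DP, 3 in nasal and 2 in blood neutrophils. Alox15 had 7.98 FPKM in DP, 2.73 in the nasal and 0 in the blood neutrophils. Ear2 had 0.427, 11.5 and 1.34 FPKM in the same order, and Ccr3 1.92, 0.486 and 4.15. Monocyte and dendritic cell markers, of cells rich in Tnf, Tnfrsf1b and Cd40, summed to 81.1 FPKM in DP, 319.9 in the nasal and 181.8 in the blood neutrophils, and to 70.7, 58.2 and 13.7 without Ly6c2, which had 10.4, 261.7 and 168.1 FPKM. Of these 10 markers 2 were highest in DP, 6 in nasal and 2 in blood neutrophils, Itgax having 55.4 FPKM in DP, 14.3 in the nasal and 5.34 in the blood neutrophils and Ccr2 5.16, 15.8 and 0.757. Mast cell and basophil markers summed to at most 6.23 FPKM, in nasal neutrophils, with Fcer1a and Mcpt4 at 0 in every library. Platelet and red cell markers summed to 22.2 FPKM in DP, 16.9 in the nasal and 3473 in the blood neutrophils. The part of any of these cells in the family's values was not tested.

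**Figure D5:**
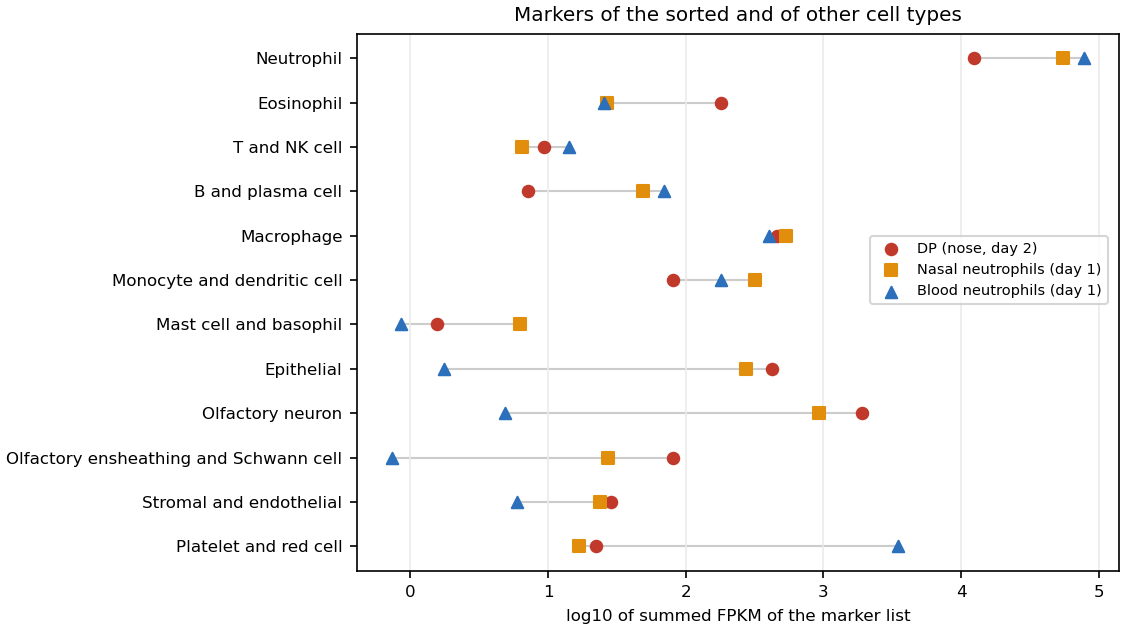
Summed FPKM of 12 marker lists in each library, on a log10 axis. Neutrophil markers are the highest list in all 3 libraries, and the epithelial, olfactory neuron and ensheathing lists are far lower in blood neutrophils than in DP and nasal neutrophils.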

How the data were processed

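RNA-seq of 3 sorted mouse populations was analysed from 1 gene table per library. TopHat2 2.0.8, Cufflinks 2.1.1, the build mm9 and Bowtie2 2.1.0 are named, without settings or annotation, per the submitters' processing notes. The deposited values were taken as FPKM from the Cufflinks identifier column in the file headers and the processing notes, since the headers do not name the unit. As FPKM cannot enter a count model, and with 1 library per group, no p-value was computed.

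Values above 0 and below 1e-06 FPKM were set to 0; 0 members were affected. Genes with a mean of 1 FPKM or more were compared on the log2(FPKM + 1) scale, at a threshold of 4-fold. Depth was read from the commonest value of FPKM times length over single-transcript genes longer than 1500 nt (within 6%), with 66 genes at that step in DP, 77 in the nasal and 50 in the blood neutrophils, and 18, 7 and 4 at 0.5 of it; it is approximate. Lengths came from GENCODE M21, another build than mm9, matched for 98.8% of the compared genes. Promoter sequences are RefSeq's, matched by symbol. The counting steps were tested on simulated data. Python 3.11.15, numpy 2.4.6 and pandas 2.3.3 were used.

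The members, gene lists and roles were chosen with earlier results of these data known. Every compared member is named with its values, as is each member at 1 FPKM or more in a library. Of the pathway lists, the rule named the 4 genes with the largest absolute log2 ratio in each comparison at a mean of 5 FPKM or more. Adam17, Birc2, Rnf31, Ltbr, Relt and Rell1, the low members and the individual marker genes were chosen after their values were seen. Alternatives were pseudocounts of 0.1 and 5, no filter, a mean of 5 FPKM or more, rescaling to a sum of 1000000, upper-quartile scaling, centring, a 2-fold threshold, omission of genes at 0 in either library, and a correction for the median of 20 bins of transcript length. Otulin, Jchain, Adgre1 and Siglecf were read under their older names Fam105b, Igj, Emr1 and Siglec5, and Ly6g, Trac, Trbc2 and Mzb1 were not analysed here.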

Additional observations from a re-analysis of the deposited data

How the results depend on the processing

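For DP over nasal neutrophils, the 1 member at least 4-fold higher became 0 with a pseudocount of 5, with upper-quartile scaling, with centred ratios and with the length correction. It became 3 at a 2-fold threshold. Of the 10719 genes tested, 903 were higher, and these became 441, 359, 360, 289 and 3600 in that order of settings. The 3 members at least 4-fold lower became 5 with a pseudocount of 0.1 and with centring, 6 with the length correction and 10 at 2-fold. The 388 lower among all genes became 579, 773, 756 and 1207. The median of the members, -0.61, was -1.46 with the length correction. For nasal over blood neutrophils, the 6 higher members became 10 with a pseudocount of 0.1 and 13 at 2-fold. They became 8 with rescaled sums and 7 with upper-quartile scaling. The count was 4 with a pseudocount of 5, with centring and with the length correction. Over all genes tested, the 1408 higher became 2886, 3595, 1991, 1577, 470, 968 and 951 in that order. The median of the members, 1.08, was 0.12 without a filter, where that of all genes went from 0.41 to 0.06. For DP over blood neutrophils, the 3 higher members became 6 with a pseudocount of 0.1, 5 with rescaled sums and 8 at 2-fold. The 2577 higher among all genes became 3847, 3209 and 5214. The 1 lower member became 2 with a pseudocount of 0.1 and with upper-quartile scaling. It became 5 with centring, with the length correction and at 2-fold. The 383 lower among all genes became 473, 645, 971, 966 and 1017 in that order. The median of the members, 0.40, changed direction with a mean of 5 FPKM or more (-0.27), upper-quartile scaling (-0.01), centring (-0.55) and the length correction (-0.53). The cause was not tested. Of single members, 0 ratios past 4-fold changed sign; smaller ratios of 9 members did so 23 times, those of Fas, Lta, Ltb, Tnfrsf9, Tnfrsf10b, Tnfrsf12a, Tnfrsf21, Tnfrsf22 and Tnfsf10. No paired analysis was possible because each group had 1 library, and none could be left out. Depth limits low members, such as Tnfrsf13c with about 3 fragments in DP and Lta and Tnfrsf9 with about 10 and 11 in blood neutrophils.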
